A study of Mus musculus with 12 samples.

Results

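Genes of the nuclear pore and of the receptors that carry cargo through it were followed across 12 RNA-seq libraries of cultured mouse B cells. The set holds 47 of the 24015 genes measured. It takes the nucleoporins whose symbol starts with Nup and a digit, the importin alpha genes (Kpna), Kpnb1, the importins (Ipo), the transportins (Tnpo), the exportins (Xpo, Xpot and Cse1l) and Ranbp17, a receptor that the selection names by itself. All 47 genes were listed for both cultures.

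The tested cells came from T58A mice, which carry a changed MYC in which a threonine that normally helps mark the protein for destruction is replaced by alanine. Their WT littermates were the reference, and the sources used here do not say whether T58A animals carried 1 or both mutant copies. Immature B cells from bone marrow were kept for 48 h with IL7, a cytokine on which B cell precursors depend, and mature B cells from spleen were kept for 48 h with lipopolysaccharide (LPS), a bacterial molecule that makes mature B cells divide and secrete antibody. Both cultures grew in RPMI medium with serum. The groups were T58A IL7, WT IL7, T58A LPS and WT LPS, with 3 libraries each, and the titles number a T58A and a WT library of each culture as a pair. The animal behind each library is not named, so p-values measure the spread between these libraries, which may be technical.

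The nuclear pore complex is a ring of proteins set into the nuclear envelope. Scaffold nucleoporins of the Y complex and the inner ring build the frame, and channel nucleoporins rich in phenylalanine-glycine repeats fill it. Importins bind cargo in the cytoplasm and release it in the nucleus when they meet the small GTPase Ran bound to GTP, and exportins load cargo together with Ran-GTP and release it outside. Growing lymphocytes import ribosomal proteins and histones and export tRNAs and ribosomal subunits through these routes.

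Between 8486753 and 10201113 reads per IL7 library fell in genes, and between 5110746 and 9332410 per LPS library. Values are the authors' normalised read counts. A count of 0 allows up to 3 reads, or 2.15 to 4.12 normalised reads, which covers counting error only. In both cultures WT 1 and WT 2 held Xist, the RNA of the inactive X chromosome of females, while WT 3 and all T58A libraries held Y-linked transcripts, so sex and genotype cannot be told apart in pairs 1 and 2. WT 2 of the IL7 culture held Y-linked reads as well (summed normalised reads of 168 over 4 genes). Reads of 5 B lineage genes (Cd79a, Cd79b, Pax5, Ebf1 and Cd22) summed to 16905 to 22401 in T58A IL7 and 19610 to 33819 in WT IL7 libraries, highest in WT 1, and 3 of the 5 were lower at an adjusted p under 0.05. The 6 markers of B cell precursors summed to 15357 to 18033 in T58A IL7 and 16472 to 22247 in WT IL7 libraries, and 2 of the 6 were lower at an adjusted p under 0.05. Of 12 myeloid markers, 9 were abundant enough to test and 1 was lower, with sums of 926 to 1471 in T58A IL7 and 1426 to 2635 in WT IL7 libraries. The part of cell makeup in the results below was not tested. More RNA per cell and more cells with a given RNA cannot be told apart in such libraries.

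In IL7 cultures 23 of the 44 genes with enough reads to test rose in T58A cells and 0 fell. The genes that rose included scaffold nucleoporins (Nup133, Nup160, Nup85, Nup205, Nup188 and Nup93), peripheral ones (Nup214 and Nup153), import receptors from Kpnb1 to Tnpo1, and 7 of the 8 export receptors (Ranbp17 counted among them). Apart from Ranbp17 (5.64-fold) and Xpo4 (1.90-fold), their folds lay between 1.18 and 1.48. The count is 52.3% of the tested genes of the set. Among all 11604 genes tested, 6.41% were higher and 6.31% lower by the same rule (limma with the pair as a block, Benjamini-Hochberg adjusted p under 0.05). The median log2 change was 0.29 in the set, and -0.01 over all genes tested. Without Ranbp17, which had enough reads to test only through its T58A libraries, the count was 22 of 43.

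This count rests on comparing libraries within pairs. Without the pair in the model limma called 0 of these genes and 0 of all genes. At an unadjusted p under 0.05 it then found 24 of the 44, all higher, against 9.15% of all genes. Without the pair edgeR also called 0, and DESeq2 called 9, against 1.55% of all genes. With sex as a further term, which leaves the comparison to pair 3 and 1 residual degree of freedom, 0 passed, against 0.112% of all genes higher, and 16 had an unadjusted p under 0.05, all higher, against 4.71% of all genes higher, with a median log2 change of 0.26. By the authors' deposited table, 21 of the 44 were higher and 0 lower at an adjusted p under 0.05, against 4.67% and 4.97% of all genes, and all of them were among the 23. The deposited adjusted p-values lay close to those of DESeq2 with the pair, so that count rests on the pair as well. For Tnpo1 the deposited adjusted p was 1.21e-05, and DESeq2 gave 1.21e-05 with the pair and 0.0876 without it. For Nup214 these adjusted p-values were 3.5e-05, 3.83e-05 and 0.000372.

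The libraries show the shift without a test as well. The fitted change was above 0 for 42 of the 44 genes, against 49.0% of all genes. For 26 of the 44 genes every T58A IL7 library lay above every WT IL7 library, which held for 12.9% of all genes, and for 1 (Nup210l) every T58A library lay below, against 10.8% of all genes. T58A was the higher member in all 3 pairs for 38 of the 44, against 25.9% of all genes. In pair 1, 43 of the 44 were higher in T58A, against 49.0% of all genes, with a median log2 difference of 0.40. In pair 2 it was 41, against 50.1%, with a median of 0.22. In pair 3, whose libraries share their sex, it was 40, against 49.2%, with a median of 0.26. WT 1 was the lowest of the 6 libraries for 36 of the 44 genes, against 28.0% of all genes. T58A 3 was the highest for 29, against 19.8% of all genes, T58A 2 for 13, against 14.4%, and T58A 1 for 0, against 9.44%. With pair 1 left out, 22 genes rose, against 5.95% of all genes, and 21 of them were among the 23.

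**Figure D1:**
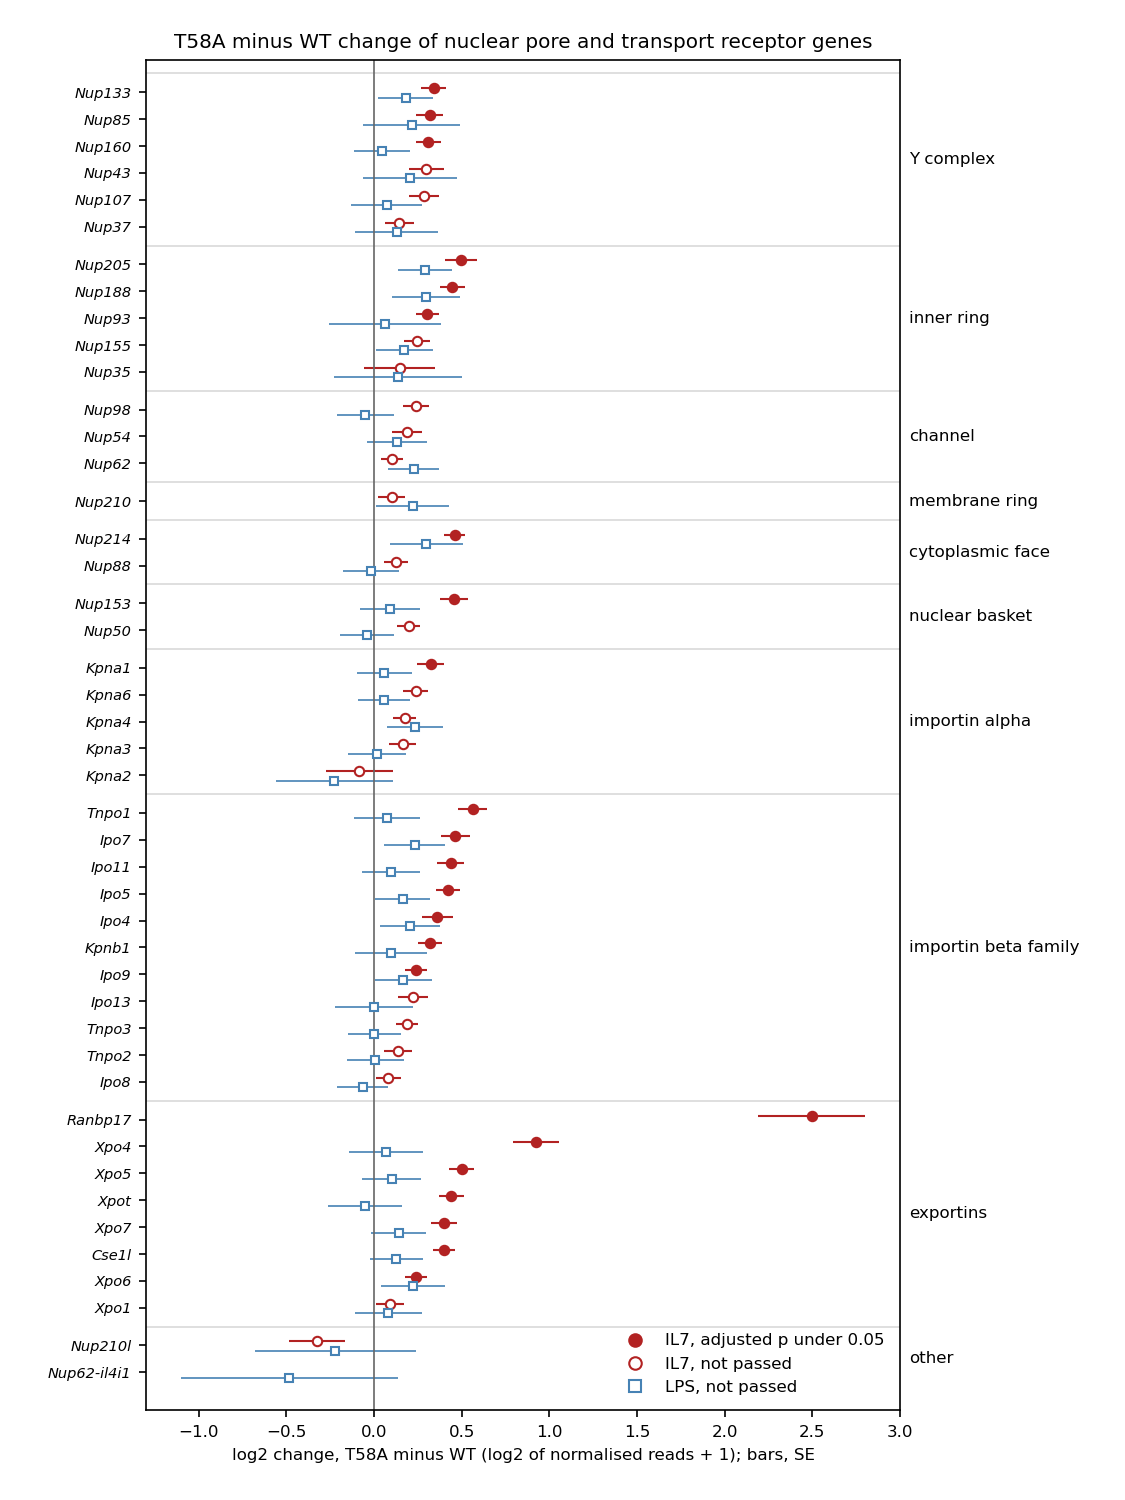
Log2 change (T58A minus WT, of normalised reads plus 1) with its SE for each tested gene, grouped by its place in the pore or its transport role; red circles are IL7 cultures (filled where the adjusted p was under 0.05), blue squares LPS cultures. In IL7 cultures 42 of 44 points lie right of 0 and Ranbp17 and Xpo4 stand farthest out. LPS points have a median closer to 0 (0.10, against 0.29 in IL7) and wider bars, and some genes, such as Nup62 and Nup210, lie farther out in LPS.

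**Figure D2:**
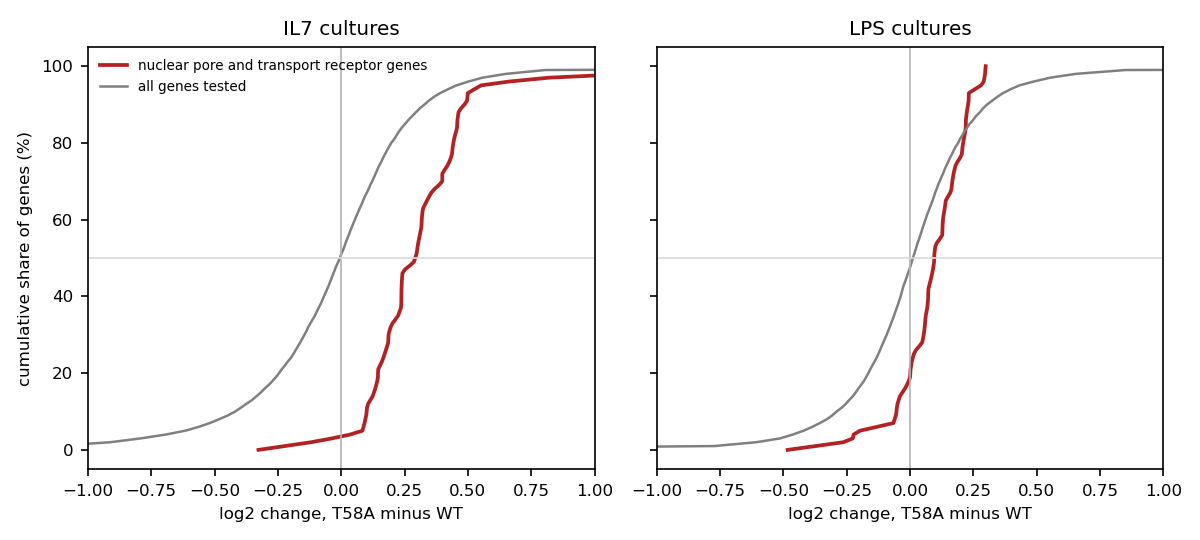
Cumulative share of genes (%) by log2 change, T58A minus WT, for the nuclear pore and transport receptor genes (red) and all genes tested (grey), in IL7 and LPS cultures. At 50% the red curve stands at 0.29 in IL7 and at 0.10 in LPS cultures, and the grey curve at -0.01 and 0.01; the axis ends at 1, so Ranbp17 is not shown.

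MYC is a transcription factor whose best known binding sequence is the E-box CACGTG, which reads the same on both strands. Promoter windows from RefSeq (GRCm38.p6, 250 bases before to 50 after a start) matched 36 of the 47 genes by symbol. CACGTG stood in 7 of the 36 (19.4%), 12.2% of the genes tested in IL7 cultures that had a window, and 8.09% of all 27025 genes with a window. Counted by window and not by gene, it stood in 7.15% of all 32851 windows. It stood in 5 of 18 genes that rose and in 2 of 16 tested genes that did not pass (Nup54 and Tnpo2). The 5 were Nup188, Ipo7, Nup93, Xpot and Ipo4. A match in these letters is a description and not a measured site. Nup188 and Tnpo2 held 2 matches each and the others 1. Shown are the window with 2 matches among the genes that rose (Nup188), a window of an import and of an export receptor with 1 match each (Ipo7 and Xpot), and that of Ranbp17, the gene with the largest change, which has none. Capitals mark CACGTG.
Nup188, chr2:30286166-30286465, plus strand: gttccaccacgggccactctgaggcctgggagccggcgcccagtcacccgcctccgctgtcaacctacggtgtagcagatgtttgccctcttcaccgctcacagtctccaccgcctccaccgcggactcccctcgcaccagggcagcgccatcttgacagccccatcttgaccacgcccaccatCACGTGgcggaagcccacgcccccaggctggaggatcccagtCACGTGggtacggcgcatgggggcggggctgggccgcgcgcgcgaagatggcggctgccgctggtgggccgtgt
Ipo7, chr7:110018065-110018364, plus strand: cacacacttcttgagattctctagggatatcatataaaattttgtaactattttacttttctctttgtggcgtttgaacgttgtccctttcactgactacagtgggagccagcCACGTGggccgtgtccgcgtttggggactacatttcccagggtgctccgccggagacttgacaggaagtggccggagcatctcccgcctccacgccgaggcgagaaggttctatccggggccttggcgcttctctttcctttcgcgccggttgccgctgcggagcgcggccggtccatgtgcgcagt
Xpot, chr10:121626283-121626582, minus strand: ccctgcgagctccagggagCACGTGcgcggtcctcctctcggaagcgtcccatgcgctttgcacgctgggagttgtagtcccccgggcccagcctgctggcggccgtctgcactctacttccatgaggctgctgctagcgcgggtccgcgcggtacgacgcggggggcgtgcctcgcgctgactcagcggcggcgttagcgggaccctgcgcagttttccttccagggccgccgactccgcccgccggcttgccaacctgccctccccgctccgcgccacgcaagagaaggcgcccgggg
Ranbp17, chr11:33513704-33514003, minus strand: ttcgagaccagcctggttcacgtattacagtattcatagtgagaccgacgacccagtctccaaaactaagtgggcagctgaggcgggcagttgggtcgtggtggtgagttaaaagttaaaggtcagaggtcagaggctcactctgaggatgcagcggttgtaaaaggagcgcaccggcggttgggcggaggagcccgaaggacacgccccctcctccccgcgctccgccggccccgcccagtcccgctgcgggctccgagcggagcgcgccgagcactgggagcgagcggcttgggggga
In Nup188 the matches begin 66 and 24 bases before the start (positions -66 and -24), in Ipo7 at -137 and in Xpot at -231. In Nup93 the match begins at -175 and in Ipo4 at 15, inside the transcribed part.

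The Y complex is the outer scaffold that tiles both faces of the pore. Of the 6 genes of the set that are counted under it here, 3 were higher in T58A IL7 cultures. All 6 had a fitted change above 0 and were higher in every pair. Seh1l, Sec13 and Ahctf1 of this complex lie outside the selection. They are counted below with the other nucleoporins, where Ahctf1 rose and Seh1l and Sec13 did not pass. Nup133 (chromosome 8) was at 1518, 1602 and 1647 in T58A pairs 1 to 3, and 1122, 1356 and 1299 in WT (log2 change 0.34 ± 0.07 SE, limma adjusted p = 0.0193). Every T58A library stood above every WT library. Nup160 (chromosome 2) was at 1721, 1912 and 1957 in T58A, and 1295, 1667 and 1567 in WT (0.31 ± 0.07 SE, limma adjusted p = 0.0255). Nup85 (chromosome 11) was at 2160, 2127 and 2282 in T58A, and 1552, 1903 and 1838 in WT (0.32 ± 0.08 SE, limma adjusted p = 0.0311). For both, the groups did not overlap and WT 1 was the lowest library. Nup107, Nup43 and Nup37 did not pass, with log2 changes of 0.14 to 0.30 and limma adjusted p-values from 0.0597 in Nup107 to 0.267 in Nup37. Nup133, Nup160 and Nup85 lost the call with pair 3 left out.

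In the inner ring, which anchors the scaffold to the membrane and to the channel, 3 of 5 genes rose. Nup205 (chromosome 6), a large solenoid subunit, was at 3995, 4193 and 4171 in T58A IL7 libraries, and 2332, 3418 and 3124 in WT (log2 change 0.50 ± 0.09 SE, limma adjusted p = 0.0135). The T58A libraries lay close together and WT 1 was far the lowest. Its paralogue Nup188, whose promoter is shown above, was at 2813, 2598 and 2995 in T58A, and 1983, 2110 and 2068 in WT (0.45 ± 0.07 SE, limma adjusted p = 0.00845). Nup93, the linker that holds both paralogues, was at 1962, 2100 and 2206 in T58A, and 1497, 1707 and 1895 in WT (0.30 ± 0.07 SE, limma adjusted p = 0.0240), with the T58A libraries all above WT. The call of Nup93 was lost without pair 2 and without pair 3. Nup155 (0.24 ± 0.07 SE, limma adjusted p = 0.0661) and Nup35 (0.15 ± 0.20 SE, limma adjusted p = 0.675) did not pass. Nup35 was at 47.3 to 61.8 normalised reads in T58A and 45.5 to 57.1 in WT.

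None of the 3 channel nucleoporins of the set passed the test in IL7 cultures. Nup98, which lines the channel and is also found fused to other genes in leukaemia, was at 1923, 1996 and 2208 in T58A, and 1470, 1860 and 1890 in WT (log2 change 0.24 ± 0.07 SE, limma adjusted p = 0.0686). Its T58A libraries lay above WT without overlap. Nup54 changed by 0.19 ± 0.09 SE and Nup62 by 0.10 ± 0.06 SE, with limma adjusted p-values of 0.184 and 0.302. Nup62 shares exon sequence with Atf5 and Il4i1, over 3.40% of its exon length in GENCODE M21, and with the read-through entry Nup62-il4i1, so reads among them may be split. The membrane ring had 1 gene in the set, Nup210, a membrane-spanning nucleoporin. Nup210 was at 10700, 11052 and 8388 in T58A, and 9096, 9984 and 8885 in WT. It was higher in T58A in pairs 1 and 2 and lower in pair 3, and it did not pass (0.10 ± 0.07 SE, limma adjusted p = 0.408).

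On each face of the pore 1 of 2 genes of the set rose. Ranbp2 of the cytoplasmic face and Tpr of the nuclear basket lie outside the selection, are counted below with the other nucleoporins, and did not pass. Nup214, the cytoplasmic filament nucleoporin that docks exportin complexes, was at 2223, 2254 and 2202 in T58A IL7 libraries, and 1615, 1659 and 1586 in WT. Both groups were tight, with means of 2226 ± 26.3 in T58A and 1620 ± 36.7 in WT (SD, n = 3 each), and the log2 difference was 0.46, 0.44 and 0.47 in pairs 1, 2 and 3 (0.46 ± 0.06 SE, limma adjusted p = 0.00555). Its partner Nup88 was at 1434 to 1598 in T58A and 1357 to 1390 in WT, without overlap, and did not pass (0.12 ± 0.07 SE, limma adjusted p = 0.269). Nup153, the basket nucleoporin on the nuclear side, was at 3256, 3695 and 3840 in T58A, and 2055, 2818 and 3084 in WT (0.46 ± 0.08 SE, limma adjusted p = 0.0111). Nup50, a basket partner that helps release importin alpha from cargo, did not pass (0.20 ± 0.06 SE, limma adjusted p = 0.0788).

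Importin alpha proteins read the classical nuclear localisation signal and hand the cargo to importin beta. Of 5 tested importin alpha genes, 1 rose. Kpna1 was at 1343, 1273 and 1364 in T58A IL7 libraries, and 962, 1120 and 1109 in WT (log2 change 0.32 ± 0.08 SE, limma adjusted p = 0.0322). All T58A libraries lay above WT, and the call was lost without pair 1 and without pair 3. Kpna6, Kpna4 and Kpna3 had log2 changes of 0.24, 0.17 and 0.16 and limma adjusted p-values of 0.0596, 0.122 and 0.187. Kpna2, the form best known from proliferating cells, was at 270, 249 and 324 in T58A, and 206, 418 and 303 in WT. Its pairs pointed in different directions, with log2 differences of 0.39, -0.74 and 0.10, and WT 2 was the highest library (-0.09 ± 0.19 SE, limma adjusted p = 0.802). Kpna7, known from oocytes and early embryos, was at 0 in all 6 IL7 libraries.

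Receptors of the importin beta family rose in 7 of 11 cases in T58A IL7 cultures, and all 11 had a fitted change above 0. Kpnb1 itself, the partner of importin alpha, was at 8963, 10298 and 10620 in T58A, and 6684, 8236 and 9188 in WT. The lowest T58A library overlapped the highest WT library, and T58A was higher within each pair (log2 change 0.32 ± 0.07 SE, limma adjusted p = 0.0202). The call was lost without pair 2. Tnpo1, which carries hnRNP proteins, was at 1759, 2061 and 2307 in T58A, and 1015, 1528 and 1675 in WT (0.56 ± 0.08 SE, limma adjusted p = 0.00723). Among the importins without importin alpha, Ipo5, Ipo7, Ipo9 and Ipo4 are known carriers of ribosomal proteins or histones. Ipo5 was at 6585, 7299 and 7810 in T58A, and 4445, 5641 and 6215 in WT (0.42 ± 0.07 SE, limma adjusted p = 0.00963). Ipo7 was at 3495, 4017 and 4212 in T58A, and 2165, 3246 and 3208 in WT (0.46 ± 0.08 SE, limma adjusted p = 0.0118). In Tnpo1, Ipo5 and Ipo7 the groups did not overlap and WT 1 was the lowest library.

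Ipo4 was at 1116, 1221 and 1089 in T58A IL7 libraries, and 859, 832 and 983 in WT (log2 change 0.36 ± 0.09 SE, limma adjusted p = 0.0337), again without overlap, and it lost the call without pair 2. Ipo11, which carries ubiquitin-conjugating enzymes, was at 1336, 1417 and 1498 in T58A, and 887, 1123 and 1147 in WT (0.44 ± 0.08 SE, limma adjusted p = 0.0116). The T58A libraries of Ipo11 all lay above WT. Ipo9 was at 2261, 2375 and 2698 in T58A, and 1864, 2072 and 2294 in WT, which overlap (0.24 ± 0.06 SE, limma adjusted p = 0.0413). Ipo9 was the least stable of these calls, lost without pair 1, without pair 2, without pair 3 and under scaling to total reads, and it did not pass in the authors' deposited table (adjusted p = 0.0678). Ipo13, Tnpo3, Tnpo2 and Ipo8 did not pass, with log2 changes of 0.08 to 0.22 and limma adjusted p-values of 0.0851 to 0.459. The TruSeq RNA v2 kit named in the labels does not mark strand, and 10.6% of the exon length of Tnpo2 lies under the antisense gene A230103J11Rik, so their reads cannot be told apart.

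Export receptors, with Ranbp17 counted among them, rose in 7 of 8 cases, the largest share of the groups here with more than 2 tested genes. Without Ranbp17 it was 6 of 7. Xpo5, the exporter of precursor microRNAs, was at 1488, 1719 and 1704 in T58A IL7 libraries, and 971, 1288 and 1231 in WT (log2 change 0.50 ± 0.07 SE, limma adjusted p = 0.00623). Xpot, the exporter of tRNAs, was at 2005, 2071 and 2225 in T58A, and 1350, 1659 and 1652 in WT (0.44 ± 0.07 SE, limma adjusted p = 0.00963). Cse1l, which returns importin alpha to the cytoplasm, was at 3290, 3635 and 3837 in T58A, and 2381, 2853 and 2948 in WT (0.40 ± 0.06 SE, limma adjusted p = 0.00820). In all 3 genes the groups did not overlap, and T58A was higher in each pair.

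Xpo4, which exports eIF5A and Smad3, stood apart from the other exportins. It was at 663, 758 and 683 in T58A IL7 libraries, and 259, 486 and 397 in WT, without overlap. The log2 change was 0.92 ± 0.13 SE (limma adjusted p = 0.00653), with 1.35, 0.64 and 0.78 in pairs 1, 2 and 3. Xpo7, known for its abundance in erythroid cells, was at 2039, 2129 and 2399 in T58A, and 1431, 1783 and 1779 in WT (0.40 ± 0.07 SE, limma adjusted p = 0.0127). Erythroid marker sums were 2099 to 2867 in T58A IL7 and 1316 to 2420 in WT IL7 libraries, with Hbb-b1 at 0 in all. The 1 erythroid marker abundant enough to test was higher in T58A, and the part of these markers in the Xpo7 result was not tested. Xpo6, the exporter of actin with profilin, was at 2394, 2563 and 2611 in T58A, and 2125, 2122 and 2159 in WT (0.24 ± 0.06 SE, limma adjusted p = 0.0418). Its groups did not overlap, but the call was lost without pair 2, without pair 3, under scaling to total reads and under a correction for length and GC content (log2 change 0.14, limma adjusted p = 0.244), and the authors' deposited table gave an adjusted p of 0.0640.

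Xpo1 (Crm1), the general exporter of proteins with leucine-rich export signals and of ribosomal subunits, was the 1 export receptor that did not pass. It was at 5264, 5889 and 5519 in T58A IL7 libraries, and 4267, 5667 and 5844 in WT. The groups overlapped and pair 3 was lower in T58A, with log2 differences of 0.30, 0.06 and -0.08 in pairs 1, 2 and 3 (0.09 ± 0.08 SE, limma adjusted p = 0.476).

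Ranbp17, a Ran-binding relative of Xpo7 whose cargo is little known, was the gene of the set with the largest change. Its span on chromosome 11 runs from 33211795 to 33513746 on the minus strand (GRCm38). It was at 44.1, 50.6 and 69.4 normalised reads in T58A IL7 libraries, and 5.57, 11.8 and 9.91 in WT. All WT libraries were above the limit of 3 reads, and the lowest T58A library was above the highest WT library. The log2 change was 2.50 ± 0.31 SE (limma adjusted p = 0.00404), with 2.78, 2.02 and 2.69 in pairs 1, 2 and 3. Ranbp17 had enough reads to test only through its T58A libraries. It was named for the set with earlier results of these data known, so this adjusted p is a description and not independent support. The size of the log2 change depends on the method at so few reads. It was 2.09 with a pseudocount of 5 and 2.56 with 0.5, and the authors' deposited log2 fold change was 0.83. Its mean RPKM, reads scaled to exon length and to the reads of the library, was 0.651 in T58A IL7 cultures and 0.110 in WT IL7 cultures, under that of every other tested gene of the set. In LPS cultures it was at 0 to 2.93 normalised reads in T58A and 0 to 1.97 in WT, at or under the limit, and no fold is given.

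**Figure D3:**
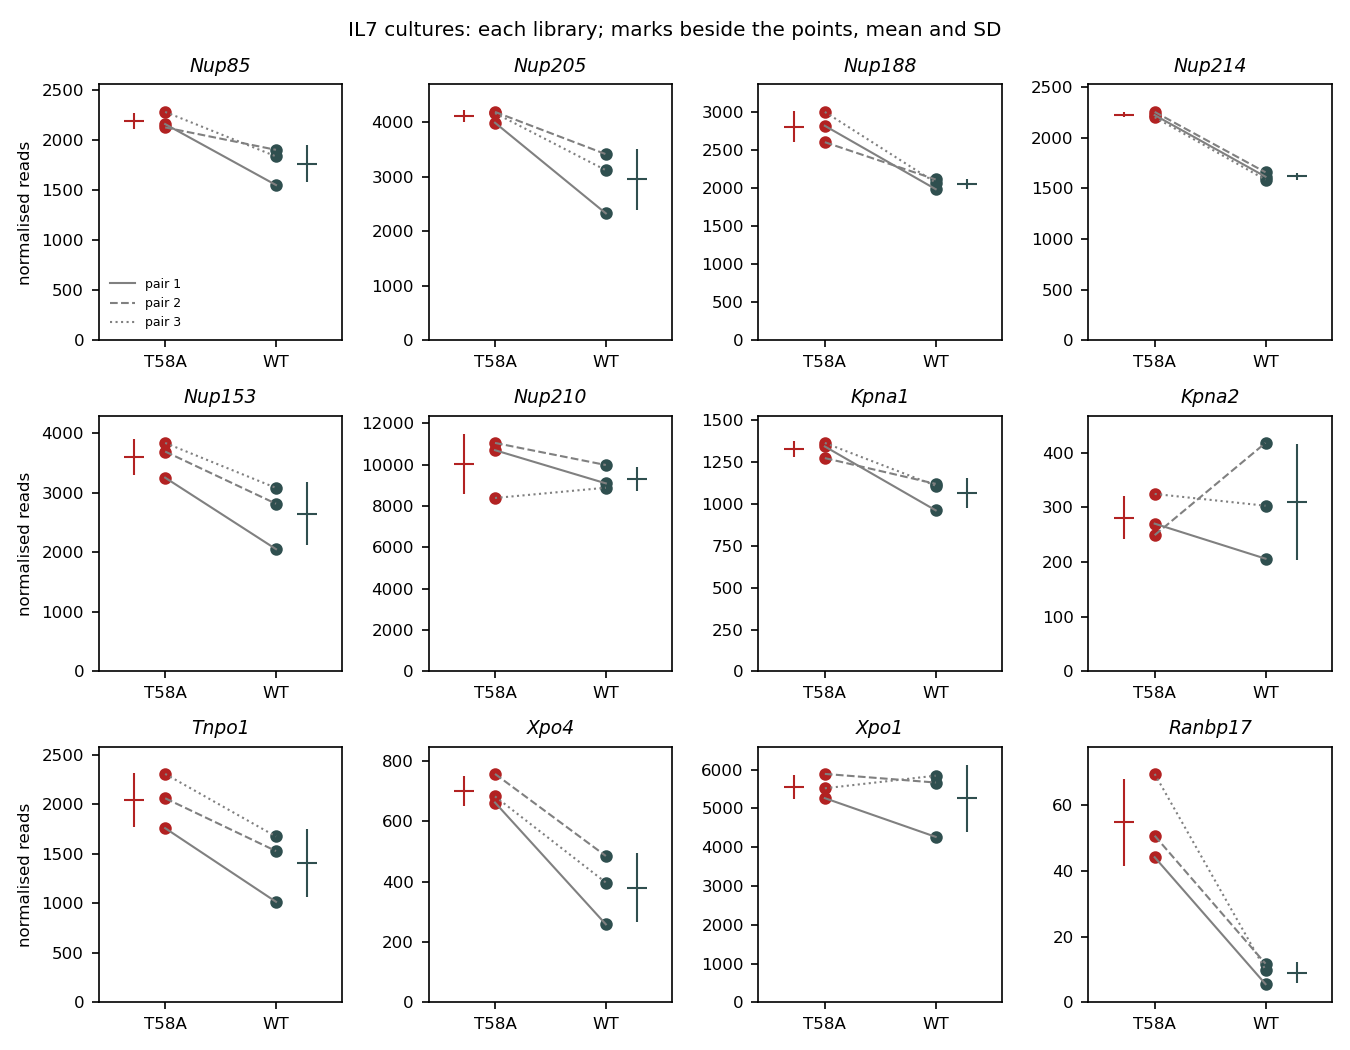
Normalised reads (each axis starts at 0) of 12 genes in the 3 T58A and 3 WT IL7 libraries, with lines joining numbered pairs and the mean and SD beside the points. Nup214 and Nup188 show tight WT libraries below T58A, Nup205 and Tnpo1 a low WT 1, and the lines of Kpna2, Xpo1 and Nup210 point in different directions.

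Of the remaining genes, Nup210l, a paralogue of Nup210 known from testis, was the 1 gene lower in T58A IL7 cultures in all pairs, against 26.0% of all genes. It was at 99.0, 85.8 and 79.9 in T58A, and 104, 113 and 115 in WT (log2 change -0.33 ± 0.16 SE, limma adjusted p = 0.210), and did not pass. Nup62cl was at 0 in all IL7 libraries, and Nup62-il4i1 was at 6.66 to 9.68 in T58A and 8.81 to 11.8 in WT, too few to test.

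Gene length and GC content were compared as features that the selection did not use. The median exon length was 7878 bases in the 23 genes that rose, 5720 in the 21 that did not pass and 4453 in all genes tested. The Spearman correlation of the log2 change with exon length was 0.28 over the 44 genes, and with GC content -0.04, given as descriptions over genes that share the same libraries. With the log2 values corrected in each library for their trend with length and GC content, a correction added after the data had been seen, 23 genes rose, against 7.85% of all genes, 21 of them shared with the uncorrected fit, and the median change was 0.26. Ipo9 (limma adjusted p = 0.0636) and Xpo6 lost the call there, and Nup107 and Nup43 gained it.

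Partners of these genes outside the selection were counted by the same rule, under which 6.41% of all genes were higher. Of 12 other nucleoporins 3 (25.0%) rose in T58A IL7 cultures and 0 fell, with a median log2 change of 0.24. Pom121, which anchors the pore in the membrane, was at 2488, 2394 and 2504 in T58A, and 1849, 1943 and 1926 in WT (0.37 ± 0.06 SE, limma adjusted p = 0.0113). Ndc1, another membrane anchor, averaged 887 ± 22.0 in T58A and 693 ± 100 in WT (SD, n = 3 each; 0.36 ± 0.10 SE, limma adjusted p = 0.0417). The third was Ahctf1 (Elys), which seeds pores on chromatin. Of 8 genes listed with the Ran cycle 2 (25.0%) rose and 0 fell, with a median of 0.22. They were Ranbp1, a co-factor of Ran GTP hydrolysis (0.30 ± 0.07 SE, limma adjusted p = 0.0272), and Rcc2 (0.23 ± 0.06 SE, limma adjusted p = 0.0454). Rcc2 is a relative of Rcc1 and not an established regulator of Ran, so among the other genes of that list only Ranbp1 passed. Ran itself changed by 0.21 ± 0.06 SE (limma adjusted p = 0.0574). Of 22 genes of mRNA export and other transport 1 rose, Mcm3ap (0.27 ± 0.07 SE, limma adjusted p = 0.0363), a scaffold of the export machinery at the pore, and 0 fell, with a median of 0.04. That share, 4.55%, was under that of all genes. Pcid2 had the next smallest p (0.29 ± 0.08 SE, limma adjusted p = 0.0522), and Nxt1 and Ranbp6 had the smallest p among those with lower means (-0.20 ± 0.09 and -0.14 ± 0.08 SE), and did not pass. In LPS cultures 0 genes of these 3 lists passed. The smallest p there was that of Rcc1, the exchange factor that loads Ran with GTP, in the Ran list (0.33 ± 0.20 SE), Ddx39b, an mRNA export helicase, in the export list (0.23 ± 0.14 SE) and Ranbp2, the large cytoplasmic filament nucleoporin, among the nucleoporins (-0.25 ± 0.17 SE).

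In LPS cultures none of the 44 tested genes of the set passed. The background was 0.0% of 11291 genes in either direction, so the count says nothing particular to the set. At an unadjusted p under 0.05 limma, edgeR and DESeq2 each found 0 of the 44, where limma found 2.52% of all genes. The authors' deposited table gave an unadjusted p under 0.05 to 5 of the genes, all higher in T58A, against 3.08% of all genes higher and 3.53% lower: Nup205 (0.0209), Nup214 (0.0262), Nup188 (0.0278), Nup210 (0.0287) and Ipo7 (0.0476). The median log2 change was 0.10, and 0.01 over all genes, and 35 of the 44 had a fitted change above 0, against 52.4% of all genes. The sign of that median depended on sex as a further term, with which it was -0.05, and it was 0.037 without WT 2 and 0.19 without WT 3. An adjusted p stood in the authors' deposited table for 35 of the genes, and 0 were under 0.05 (smallest 0.212), against 1.49% of all genes higher and 2.71% lower. Plasmablast marker sums ran from 28413 to 73227 in T58A LPS and from 44918 to 109280 in WT LPS libraries, and their part in this spread was not tested.

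The LPS fit holds no pair, since the same numbered header stands over 2 of the T58A columns and does not tell their pairs apart. These columns are called unnumbered here. In column order the first follows WT 1 and the second follows WT 2. The median SE of the LPS fit over the genes was 0.17, against 0.11 in IL7 cultures without the pair and 0.07 with it. With the first unnumbered column paired with WT 1 and the second with WT 2, deviations from the group means correlated at 0.34, 0.66 and 0.54 over genes in the 3 pairs, and the median SE was 0.095. In that fit 0 genes of the set passed (smallest limma adjusted p = 0.141), 8 had an unadjusted p under 0.05, all higher, against 8.46% of all genes higher, and T58A was higher in all 3 pairs for 16 of the 44, against 20.5% of all genes. The 16 included Nup205, Nup214, Nup210, Ipo7, Kpna4 and Xpo6. With the 2 columns exchanged their correlations were -0.22 and -0.23, the median SE was 0.18, 0 genes had an unadjusted p under 0.05, against 1.24% of all genes higher, and 5 were higher in all pairs, against 10.3%. The labels do not say which pairing holds.

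Every T58A library lay above every WT library for 2 genes in LPS cultures, against 3.1% of all genes, and for 0 genes below, against 3.3%. Nup205 was at 1343, 1400 and 1331 in T58A LPS (the first and second unnumbered column, then T58A 3), and 940, 1215 and 1202 in WT 1 to 3 (log2 change 0.29 ± 0.15 SE). Nup62 was at 1104, 1256 and 1089 in T58A, and 942, 1075 and 934 in WT (0.22 ± 0.14 SE). In both genes the lowest T58A library lay within 1 SD of WT (155 and 79.4) above the highest WT library.

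In the other roles the gene with the smallest p overlapped between the groups. Nup214 was at 610, 804 and 1029 in T58A LPS, and 549, 688 and 717 in WT (0.30 ± 0.21 SE). Ipo7 was at 2745, 2157 and 1838 in T58A, and 1999, 1881 and 1790 in WT (0.23 ± 0.18 SE). In both the T58A libraries were spread more widely than WT, with the highest T58A library well above the rest. Kpna4 was at 842, 660 and 703 in T58A, and 696, 578 and 599 in WT (0.23 ± 0.16 SE). Xpo6 was at 911, 1232 and 1290 in T58A, and 831, 1075 and 1026 in WT (0.22 ± 0.18 SE). Nup210 was at 3989, 5441 and 3660 in T58A, and 3238, 4540 and 3417 in WT (0.22 ± 0.21 SE). Its highest library in each group was the second. Nup133 was at 392, 378 and 344 in T58A, and 299, 315 and 372 in WT (0.18 ± 0.16 SE), and Nup153 at 1235, 1482 and 1594 in T58A, and 1136, 1388 and 1536 in WT (0.09 ± 0.17 SE). The sign of Nup133 and Nup153 turned with sex as a further term, and that of Nup153 without WT 1. In LPS cultures Kpna7 and Nup62cl had 1 library each above 0 (0.717 in T58A and 0.864 in WT), and Nup62-il4i1 ran from 8.80 to 44.4 in T58A and from 13.8 to 50.8 in WT (-0.48 ± 0.62 SE). Xpo4, the second largest change in IL7 cultures, was at 209, 274 and 280 in T58A LPS, and 185, 271 and 276 in WT (0.07 ± 0.21 SE).

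**Figure D4:**
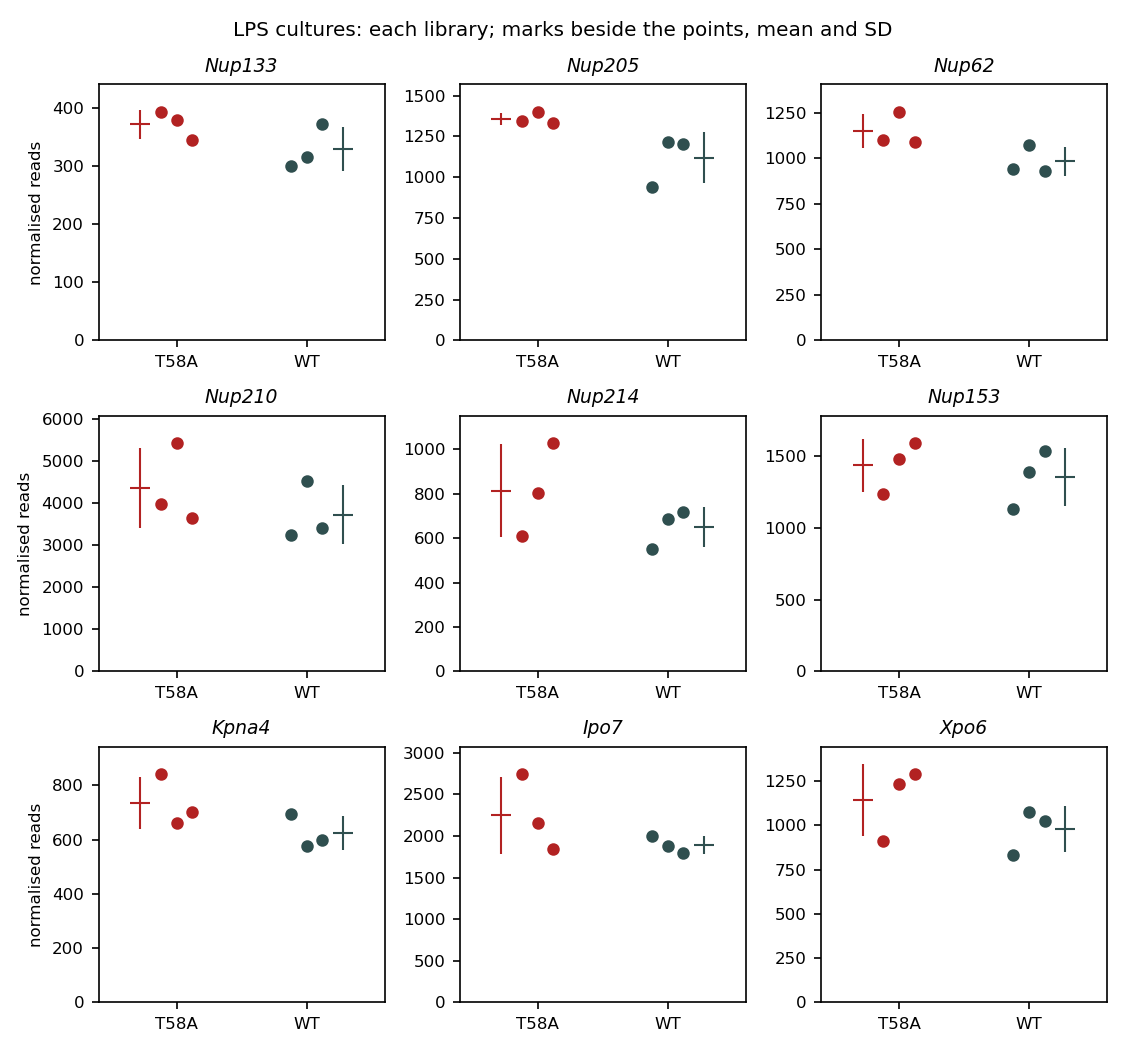
Normalised reads (each axis starts at 0) of the gene with the smallest p of each role in the 3 T58A and 3 WT LPS libraries, points in column order, with the mean and SD beside them. T58A and WT libraries overlap in 7 of the 9 genes, and Nup205 and Nup62 do not overlap.

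Whether the T58A change was larger in IL7 than in LPS cultures was tested as the difference between the 2 changes over all 12 libraries. None of 45 genes passed, against 0.0% of 12184 genes, and the smallest adjusted p was 0.995 (limma). At an unadjusted p under 0.05 there were 2, against 4.52% of all genes. They were Xpo4, larger in IL7 by 0.86 ± 0.31 SE, and Ranbp17, for which no difference is given because its LPS reads are at or under the limit in all 6 libraries. The change was larger in IL7 for 41 of the 45 genes, against 46.1% of all genes, with a median difference of 0.17 log2 units, and -0.03 over all genes. With the pair as a block, and the first unnumbered LPS column paired with WT 1, Xpo4 passed (limma adjusted p = 0.0343) while 0.64% of all genes were called larger in IL7. With the unnumbered columns exchanged, 0 genes of the set passed.

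The genes also differed in level between the cultures. In WT libraries, as reads scaled to the library total, 37 of 45 genes were higher in IL7 than in LPS cultures without overlap, against 39.7% of all genes, and 1, Nup62-il4i1, was lower, against 26.1%. The median log2 ratio of WT IL7 over WT LPS was 0.75, and 0.18 over all genes. The cultures come from different tissues and stages, were handled apart and were normalised apart, so culture, cell stage and batch cannot be told apart. The genes that overlapped were Ipo7, Kpna1, Kpna6, Nup153, Tnpo1, Xpo4 and Xpot.

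In RPKM, mean levels of the tested genes in WT IL7 cultures ran from 131 in Kpnb1 to 0.110 in Ranbp17. Ipo5 (97.5), Nup210 (95.9), Nup62 (92.1) and Xpo1 (78.9) followed Kpnb1, and the ranges of Ipo5, Nup210 and Nup62 over the 3 libraries overlapped. Nup85 and Cse1l came next at 56.1 and 55.7, with overlapping ranges. At the low end stood Xpo4 (3.82), Nup210l (2.08) and Nup35 (1.59). Of the tested receptors the most abundant, Kpnb1 and Ipo5, and the least abundant, Xpo4 and Ranbp17, were all among the genes that rose, and the Spearman correlation of the change with mean normalised reads was 0.16 over the 44 genes.

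**Figure D5:**
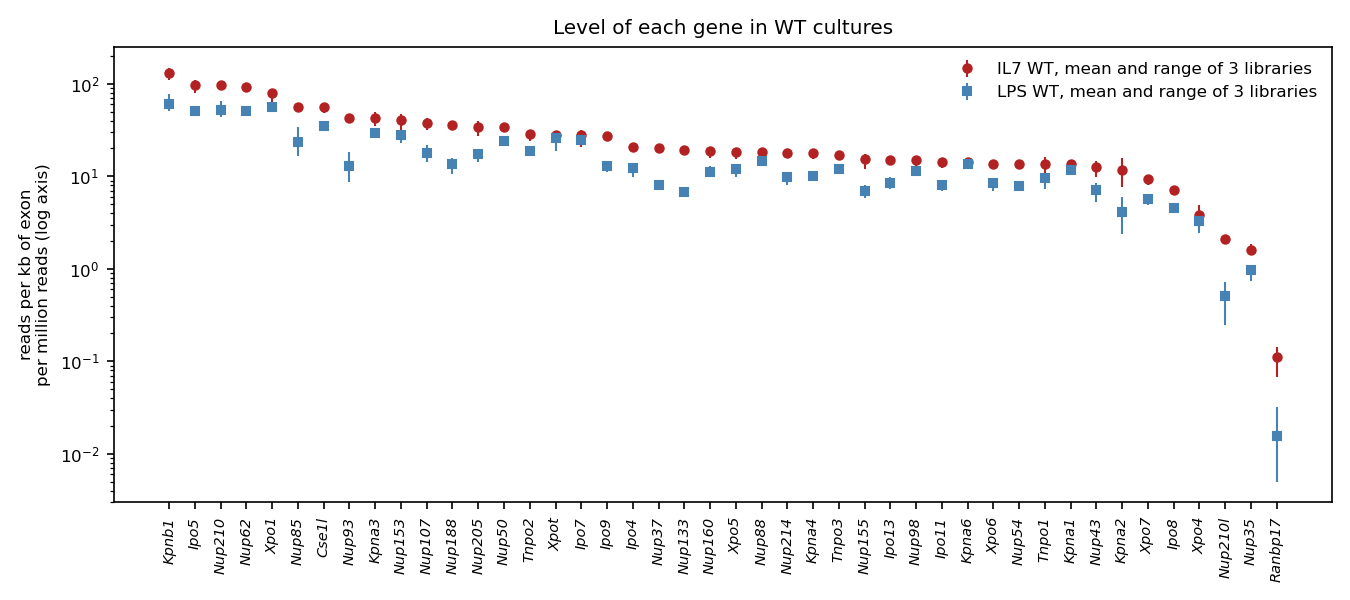
RPKM (log axis) of each gene in WT IL7 (red circles) and WT LPS (blue squares) cultures, mean and range of 3 libraries, sorted by the IL7 mean. Red lies above blue for all genes drawn, from 131 in Kpnb1 down to 0.110 in Ranbp17; the lowest LPS value of Ranbp17 was 0 and its bar is cut at the foot of the axis.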

How the data were processed

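The submitters' processing notes name bcl2fastq 1.8.4, TopHat2 2.1.0 with the mm10 build, HTSeq 0.6.1, and DESeq2 without a version. The authors deposited a table per culture with a signal per gene and library. Its values are whole reads divided by 1 size factor per library: whole reads were recovered within 0.001 for 100% of values. The tables also hold the authors' deposited log2 fold change, p-value and adjusted p per gene. A single LPS header stands over 2 of the T58A columns, whose pair number is therefore unknown.

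The signal was tested on log2(value + 1) with limma-trend (limma 3.58.1, R 4.3.3) per culture, on genes kept by filterByExpr (edgeR 4.0.16, at least 10 reads by its rule and 15 in total), two-sided, with Benjamini-Hochberg adjustment over all genes tested at 0.05. Fold changes on this scale understate low genes. The pair was a block in IL7 cultures, where the titles number it and deviations from the group means correlated at 0.15 to 0.41 within numbers and -0.36 to -0.05 between them. It was not in LPS cultures or in the interaction over all 12 libraries. Levels per length use GENCODE M21 exons (GRCm38), which matched 46 of the 47 genes and 94.6% of all symbols. Members and lists were chosen with earlier results of these data known. Statistics in full are given for genes with an adjusted p under 0.05, for Ranbp17 and for the smallest p of each role. The lists are given in IL7 cultures by the 2 smallest p among higher genes, and for the export list among lower genes too. In LPS cultures each list is given by its smallest p. Xpo1, Kpna2, Nup210l, Ran, Ahctf1 and Xpo4 in LPS were added after their values had been seen. The tests were tested on simulated counts. Alternatives were edgeR, DESeq2 1.42.0, other scalings, filters and pseudocounts, sex, the block, and leaving out pairs or libraries. The single-cell and chromatin assays of the study were not analysed here. Promoters are RefSeq windows (GRCm38.p6). Plots used Python 3.11.15 and matplotlib 3.10.9. Of the B lineage marker list, 1 gene is not reported here.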

Additional observations from a re-analysis of the deposited data

How the results depend on the processing

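In IL7 cultures the number of genes of the set that rose, 23 in the reported fit, was 23 with edgeR and the block, with TMM scaling, with pseudocounts of 0.5 and 5 and without a filter on low values. It was 0 with no replicate block (limma and edgeR), 9 with DESeq2 and no block, 0 with sex as a further term, and 16 to 22 with a pair left out. Across the settings whose background is not given above, 2.97% to 7.87% of all genes were higher. DESeq2 with the block called 20, gave Ranbp17 no adjusted p and lost Ipo9 and Xpo6. Over all genes the calls, 1476 in the reported fit, were 0 with no replicate block (limma and edgeR), 310 with DESeq2 and no block, 42 with sex, and 774 to 1425 with a pair left out. The median log2 change of the set stayed between 0.25 and 0.30 under all these settings. Nup210 turned to -0.083 with sex. In LPS cultures 0 genes of the set passed under all settings run. Over all genes 4 were called with the replicate block and the first unnumbered column paired with WT 1, 1 with DESeq2, 1 with sex and 0 to 4 with a library left out. With sex Nup133 turned to -0.0024 and Nup153 to -0.10, and Nup153 ran from -0.032 (without WT 1) to 0.19 (without the first unnumbered T58A column) with a library left out. For the difference between cultures, the replicate block (first unnumbered column with WT 1) called 1 gene of the set (Xpo4) and 373 of all genes, and leaving out a library called 0 to 3 of all genes. The cause was not tested. Depth limits Ranbp17, Kpna7 and Nup62cl, which are near or under 3 reads in at least 1 culture, and Nup62-il4i1, which had too few reads to test in IL7 cultures.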
